A study of Arabidopsis thaliana with 12 samples.

Results

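The genes that supply ADP-glucose for starch in Arabidopsis were followed here across 4 genotypes. There were 9 of them among the 20869 genes with a value in at least 1 library. They were chosen by name as PGI1, PGM1, APL1, APL2, APL3, APL4, APS1, GPT1 and GPT2 for their place in the pathway, with no threshold on a measured value but with earlier results of these data known. All 9 were listed in all 12 libraries and all 9 passed the filter on low values.

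Plastids of leaves make starch from fructose 6-phosphate of the Calvin cycle. The plastid phosphoglucose isomerase PGI1 turns it into glucose 6-phosphate and the plastid phosphoglucomutase PGM1 turns that into glucose 1-phosphate. ADP-glucose pyrophosphorylase then makes ADP-glucose, the sugar donor of starch. This enzyme joins a small subunit, which in leaves is the catalytic APS1, with large subunits APL1 to APL4, of which APL1 is known as the main one of leaves and APL3 and APL4 as those of non-photosynthetic tissue. Plastids that do not fix carbon import glucose 6-phosphate through the GPT carriers, GPT1 being the one that pollen and embryos need and GPT2 one whose transcript is known to respond to sugars and to a rise in light.

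The study compared whole seedlings of the double mutant smxl4-1 smxl5-1, of the single mutants smxl5-1 and smax1-2, and of WT, with 3 libraries of each. All 4 groups were Col-0 seedlings of 7 days, grown on plates with 12 h of light and 12 h of dark at 21 °C, and each library came from 15 pooled seedlings and was enriched for poly-A RNA. SMXL4, SMXL5 and SMAX1 are related nuclear proteins, and SMAX1 is the one that karrikin signalling removes. Each mutation is represented by 1 allele, and the labels do not say what each allele changes. Since whole seedlings were sampled, fewer cells of a type and less RNA per cell cannot be told apart in any value here.

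By the number of genes listed, no library stood apart from the others. Each deposited table listed 27825 to 31919 assembled transcript pieces of 18628 to 19022 genes, and no read counts, so the depth in reads is unknown. The pieces used below held 76.3% of the summed FPKM in smxl5-1 replicate 3 and 48.5% to 65.5% in the other libraries. No mutated gene was called lower than WT where the label names its mutation. Instead SMXL5 was called higher than WT in smxl5-1 (log2 fold change 3.06, limma adjusted p = 0.00046) and in the double mutant (1.199, limma adjusted p = 0.0467). It was called lower in the double mutant than in smxl5-1 (-1.86, limma adjusted p = 0.0047), though both labels name smxl5-1. SMAX1 lay below WT in every smax1-2 library without passing (-0.35, limma adjusted p = 0.712). The cause of these levels was not tested. SMXL5 ranged over 8.9997 to 18.2 FPKM in the libraries labelled smxl4-1 smxl5-1, at 40.0 to 50.6 FPKM in those labelled smxl5-1 and at 3.47 to 5.18 FPKM in WT. SMXL4 stood at 2.75 to 4.85 FPKM in the libraries labelled smxl4-1 smxl5-1 and at 1.81 to 3.01 FPKM in WT, and SMAX1 at 15.1 to 18.2 FPKM in those labelled smax1-2 and at 21.3 to 22.5 FPKM in WT. Gene coordinates below are those of TAIR10.1, and all directions are between libraries as they are labelled. The 4 shoot markers (photosystem and Rubisco genes) and 6 of the 7 root markers were listed in all libraries. The summed root markers stood at 1310 to 1622 FPKM in the double mutant, 1681 to 3291 FPKM in smxl5-1, 1883 to 2085 FPKM in smax1-2 and 1920 to 2211 FPKM in WT. Nearly all of that sum was PYK10, a beta-glucosidase of roots, which averaged 1366 FPKM in the double mutant and 2005 FPKM in WT (log2 fold change -0.56, limma adjusted p = 0.325). Of the 6 root markers tested, 4 had a log2 fold change above 0 in the double mutant against WT, and the median was 0.12. PYK10 and NRT2.1 (log2 fold change -0.71, limma adjusted p = 0.426) lay below WT in every double-mutant library, and no root marker lay above WT in every one. In smxl5-1 also 4 of the 6 were above 0 against WT, with a median of 0.09. There CASP1 lay above WT in every library (0.74, limma adjusted p = 0.226), and no root marker lay below WT in every one. The summed shoot markers stood at 41229 to 44266 FPKM in the double mutant, at 34511 to 39739 FPKM in smxl5-1, at 41065 to 43567 FPKM in smax1-2 and at 39372 to 42951 FPKM in WT. More than the other markers, RBCS1A set this sum, at 26061 FPKM in the double mutant and 23360 FPKM in WT on average, while the other 3 shoot markers had log2 fold changes of -0.21 to -0.16 there (list median -0.16). In smxl5-1 none of the 4 shoot markers had a log2 fold change above 0 against WT (median -0.20), which 61.8% of all genes had. None of the markers was called against WT in any mutant. Of the 4 seed storage markers CRC was listed in no library, and the sum was 2.69 to 17.5 FPKM in the double mutant, 0 to 3.85 FPKM in smxl5-1, 0 to 45.7 FPKM in smax1-2 and 0 in WT. The 2 guard cell markers summed to 18.5 to 24.4 FPKM in the double mutant, 21.0 to 23.8 FPKM in smxl5-1, 20.0 to 20.5 FPKM in smax1-2 and 17.6 to 20.9 FPKM in WT. The part of these differences in the results below was not tested.

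The stretches of 250 bases before the annotated starts of APL3, APL4 and GPT2 are shown because these 3 genes stood above WT in every library of the double mutant and of smxl5-1. They are reference sequence of RefSeq (assembly TAIR10.1), plus strand, at chr4:18259297-18259546, chr2:9238046-9238295 and chr1:22824164-22824413. Capitals mark matches to the motifs described next.
APL3: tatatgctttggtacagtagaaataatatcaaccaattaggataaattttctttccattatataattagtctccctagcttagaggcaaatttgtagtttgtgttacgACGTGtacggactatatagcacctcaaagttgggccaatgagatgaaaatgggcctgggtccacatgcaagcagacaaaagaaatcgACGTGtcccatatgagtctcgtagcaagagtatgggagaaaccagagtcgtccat
APL4: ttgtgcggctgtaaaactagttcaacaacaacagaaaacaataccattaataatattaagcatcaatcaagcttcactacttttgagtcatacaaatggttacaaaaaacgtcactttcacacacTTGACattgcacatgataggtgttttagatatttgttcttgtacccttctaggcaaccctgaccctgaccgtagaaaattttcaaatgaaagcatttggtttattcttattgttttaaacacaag
GPT2: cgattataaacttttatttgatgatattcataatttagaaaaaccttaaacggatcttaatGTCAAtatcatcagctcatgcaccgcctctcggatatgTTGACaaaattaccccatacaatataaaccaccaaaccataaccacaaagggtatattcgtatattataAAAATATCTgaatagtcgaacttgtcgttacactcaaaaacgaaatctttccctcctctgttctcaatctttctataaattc

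The letters of 6 motifs were searched on both strands before the starts of all 9 genes and of 27443 protein-coding genes. ACGTG, the core of the abscisic acid response element, lies in the APL3 stretch at 2 places, 142 to 138 and 55 to 51 bases before the start. At least 1 copy was present before 22.9% of all protein-coding genes and at least 2 copies before 8.84%. TTGAC, the core of the W-box, lies in the APL4 stretch at 1 place and in the GPT2 stretch at 2 places, once as its reverse complement. It lies also at 2 places before APL1 and at 1 place each before APS1 and GPT1, and was present before 44.9% of genes, with at least 2 copies before 14.1%. AAAATATCT, the evening element, lies 82 to 74 bases before the GPT2 start and once before PGM1, and was present before 2.36% of genes. CACGTG, the G-box, was found only before PGI1 (6.49% of genes), and it holds an ACGTG on each strand, so that PGI1 also has 2 copies of that core. GATAAG, the I-box (12.3% of genes), and TATCCA, a sugar response element (13.6% of genes), were found before none of the 9 genes. These matches describe the letters of the window and not binding.

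A gene's value below is in FPKM, fragments per kilobase scaled to library size, summed over its assembled pieces, each weighted by the share of the reference transcript it covers. It is per length, so genes can be set against each other within a library. In WT the pathway spanned a wide range of levels. APS1 averaged 136 ± 8.61 FPKM and APL1 132 ± 20.2 FPKM (SD, n = 3), and their libraries overlapped. PGI1 followed at 48.9 ± 0.846 FPKM, PGM1 at 33.7 ± 1.94 FPKM and GPT1 at 27.1 ± 3.22 FPKM (SD, n = 3), each pair of neighbours without overlap. APL2 at 7.22 ± 0.304 FPKM and APL3 at 6.43 ± 0.526 FPKM overlapped, and APL4 at 4.74 ± 0.610 FPKM and GPT2 at 2.59 ± 1.03 FPKM were lowest (SD, n = 3).

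The top of this order was alike in all genotypes, with APS1 and APL1 overlapping and above PGI1, while the lower part changed. In the double mutant APL3 was 6th at 18.4 ± 4.51 FPKM, above APL4, APL2 and GPT2, whose neighbours in that order overlapped. In smxl5-1 GPT2 was 6th at 16.6 ± 8.01 FPKM and overlapped APL3 at 14.7 ± 3.30 FPKM, and APL2 was last at 7.59 ± 0.465 FPKM (SD, n = 3). In smax1-2 GPT2 was last, as in WT, at 4.51 ± 0.676 FPKM (SD, n = 3).

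**Figure D1:**
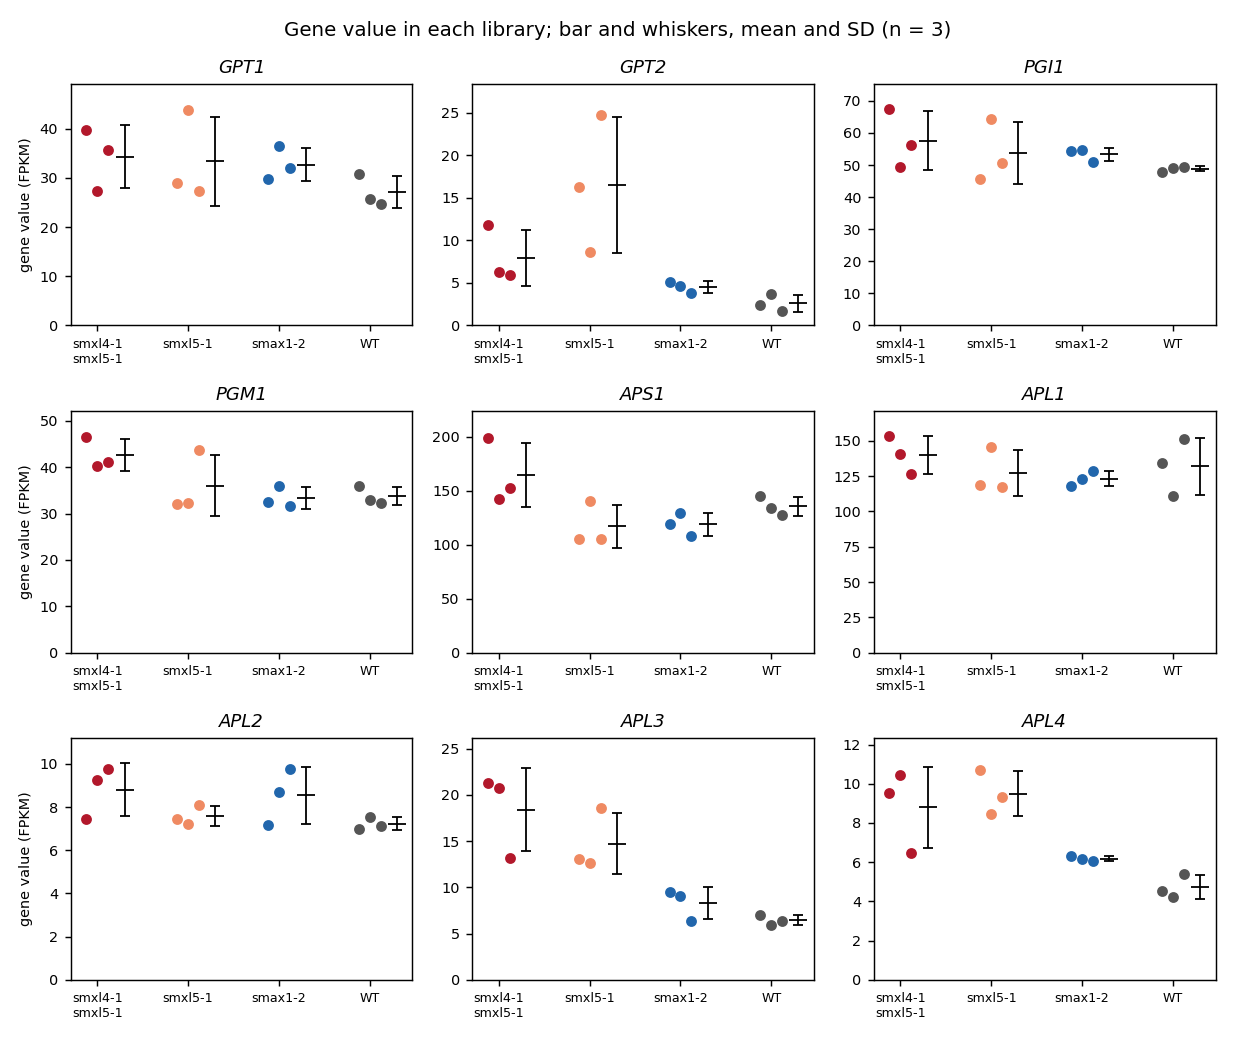
Value of each gene in FPKM (y axis, from 0, scaled per gene) in each of the 3 libraries of smxl4-1 smxl5-1, smxl5-1, smax1-2 and WT; points are libraries and bars are means with the SD. APL3, APL4 and GPT2 stand above WT in all libraries of the double mutant and of smxl5-1, while APL1 and APL2 overlap between all groups.

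In the double mutant 1 of the 9 genes was called higher than WT and none lower, where 1.13% of the 19656 genes tested were called in either direction and 0.631% higher. That gene was APL3, a large subunit of ADP-glucose pyrophosphorylase, and its mean was 2.86 times that of WT. All 9 estimates were above 0, as were those of 60.7% of all genes. The median of the 9 was 0.32 on the log2 scale, against 0.07 over all genes. An unadjusted p under 0.05 was held by 4 of the 9, against 11.9% of all genes. The libraries of 4 of the 9 genes (APL3, APL4, GPT2 and PGM1) lay above all WT libraries, which those of 12.5% of all genes did.

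APL3 (AT4G39210; 15 exons on the plus strand of chromosome 4, 18259547 to 18263468) had values of 21.3, 20.7 and 13.2 FPKM in the double mutant, against 7.00, 5.97 and 6.32 FPKM in WT. Replicate 3 of the double mutant was the lowest of its group and still stood above every WT library. The log2 fold change was 1.36 with a standard error of 0.22 (95% interval 0.88 to 1.84, limma adjusted p = 0.0160). The call held without replicate 3 of the double mutant (adjusted p = 0.0111) and was lost without each of the other 5 libraries of the comparison. The adjusted p was then 0.0596 without double-mutant replicate 1, 0.0683 without replicate 2, and 0.0563, 0.0761 and 0.0655 without WT replicates 1, 2 and 3. The estimate ranged from 1.25 to 1.57 over these 6 fits. The call was also lost with a plain sum of FPKM (adjusted p = 0.765), with complete matches to the reference alone (0.884) and in a fit of these 2 groups alone (0.0559). APL3 had a complete match in 5 of 12 libraries, and with complete matches alone its value was 0 in the rest. A piece under 300 bases gave 13% of the APL3 value in double-mutant replicate 2.

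APL4 (AT2G21590; 15 exons on the plus strand of chromosome 2, 9238296 to 9242481), the large subunit known with APL3 from non-photosynthetic tissue, had values of 9.51, 10.4 and 6.49 FPKM in the double mutant, against 4.55, 4.24 and 5.42 FPKM in WT. The groups did not overlap, and double-mutant replicate 3 was again the lowest of its group. The log2 fold change of 0.76 (95% interval 0.38 to 1.14) did not pass (limma adjusted p = 0.0777), but passed without double-mutant replicate 3 (0.94, adjusted p = 0.0296). A piece under 300 bases gave 18.8% of the APL4 value in double-mutant replicate 2, and such pieces gave none in WT. Effective lengths count short pieces less. With each piece so weighted, APL4 had values of 9.47, 8.10 and 5.65 FPKM in the double mutant, against 4.11, 4.08 and 4.46 FPKM in WT. APL1 (AT5G19220; 15 exons on the minus strand of chromosome 5, 6463824 to 6466831), the main large subunit of leaves, had values of 153, 141 and 126 FPKM in the double mutant, against 134, 111 and 151 FPKM in WT. Its groups overlapped, and its log2 fold change of 0.09 had a 95% interval of -0.19 to 0.37. APL2 (AT1G27680; 12 exons on the plus strand of chromosome 1, 9631190 to 9634597), a further large subunit, had values of 7.43, 9.24 and 9.74 FPKM in the double mutant, against 6.96, 7.55 and 7.13 FPKM in WT, which overlap.

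APS1 (AT5G48300; 8 exons on the plus strand of chromosome 5, 19570238 to 19572804), the small subunit that carries catalysis, had values of 199, 143 and 153 FPKM in the double mutant, against 145, 134 and 128 FPKM in WT. Double-mutant replicate 1 stood well above the rest, the groups overlapped, and the log2 fold change was 0.27 (95% interval -0.06 to 0.59, limma adjusted p = 0.539).

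Of the carriers, GPT2 (AT1G61800; 5 exons on the plus strand of chromosome 1, 22824414 to 22826902) had values of 11.8, 6.24 and 5.91 FPKM in the double mutant, against 2.39, 3.71 and 1.67 FPKM in WT. The groups did not overlap and the ratio of means was 3.08, but with this spread the log2 fold change of 1.301 (95% interval 0.48 to 2.12) did not pass (limma adjusted p = 0.158). GPT1 (AT5G54800; 5 exons on the plus strand of chromosome 5, 22261134 to 22263936) had values of 39.8, 27.3 and 35.7 FPKM in the double mutant, against 30.8, 25.8 and 24.7 FPKM in WT, and overlapped.

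PGI1 (AT4G24620; 14 exons on the minus strand of chromosome 4, 12708646 to 12712825) had values of 67.4, 49.4 and 56.2 FPKM in the double mutant, against 47.9, 49.2 and 49.5 FPKM in WT, so that double-mutant replicate 2 lay inside the range of WT. PGM1 (AT5G51820; 22 exons on the minus strand of chromosome 5, 21063298 to 21068327) had values of 46.6, 40.3 and 41.1 FPKM in the double mutant, against 35.9, 32.8 and 32.3 FPKM in WT. Its groups did not overlap, and its log2 fold change of 0.33 (95% interval 0.06 to 0.60) did not pass (limma adjusted p = 0.308).

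In smxl5-1 the carrier GPT2 was called higher than WT, with a mean 6.39 times that of WT, and no other gene of the 9 was called in either direction. Over all genes 0.351% were called in this comparison and 0.249% were called higher. APL3 and APL4 also stood above WT in every smxl5-1 library without passing. The estimates of 7 of the 9 genes were above 0, against 61.8% of all genes, with a median of 0.12 against 0.07. The libraries of 3 of the 9 lay above all WT libraries, which those of 13.6% of all genes did. WT was the same 3 libraries as in the other mutant comparisons.

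GPT2 had values of 16.3, 8.67 and 24.7 FPKM in smxl5-1, against 2.39, 3.71 and 1.67 FPKM in WT. The smxl5-1 libraries varied widely, and the lowest still stood above the highest WT library. The log2 fold change was 2.22 with a standard error of 0.37 (95% interval 1.40 to 3.04, limma adjusted p = 0.0412). The call held without smxl5-1 replicate 2 (adjusted p = 0.0260) and was lost without each of the other 5 libraries, with adjusted p values of 0.117 and 0.1005 without smxl5-1 replicates 1 and 3, and 0.171, 0.0799 and 0.123 without WT replicates 1, 2 and 3. The estimate ranged from 1.89 to 2.59 over these 6 fits. The assembled GPT2 piece covered 1455 to 1514 of 1569 reference bases in smxl5-1 and 660 to 1423 in WT, and with a plain sum of FPKM, which takes no account of that length, the log2 fold change was 1.78 (adjusted p = 0.261). The call was also lost with quantile normalization (adjusted p = 0.0635), median-of-ratios scaling (0.0571), complete matches alone (0.418) and a fit of these 2 groups alone (0.160). Fitting the replicate number as a block lost the call too.

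APL3 had values of 13.0, 12.6 and 18.5 FPKM in smxl5-1, against 7.00, 5.97 and 6.32 FPKM in WT. The groups did not overlap, and the log2 fold change of 1.06 (95% interval 0.58 to 1.54) did not pass (limma adjusted p = 0.0773). APL4 had values of 10.7, 8.45 and 9.30 FPKM in smxl5-1, against 4.55, 4.24 and 5.42 FPKM in WT, again without overlap, a log2 fold change of 0.87 (95% interval 0.49 to 1.25, limma adjusted p = 0.0708). Pieces under 300 bases made up 45.7%, 23.6% and 44.6% of the APL4 value in smxl5-1 replicates 1, 2 and 3 and none of it in WT. When each piece was weighted by its effective length, which counts short pieces less, APL4 had values of 5.81, 7.01 and 5.77 FPKM in smxl5-1, against 4.11, 4.08 and 4.46 FPKM in WT, and the log2 fold change was 0.46 (adjusted p = 0.219).

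The other genes overlapped between smxl5-1 and WT. APS1 had values of 105, 140 and 106 FPKM in smxl5-1, against 145, 134 and 128 FPKM in WT, with a log2 fold change of -0.22 (95% interval -0.55 to 0.10), and APL1 measured 119, 146 and 117 FPKM in smxl5-1, against 134, 111 and 151 FPKM in WT. Replicate 2 was the highest smxl5-1 library for APS1, APL1, PGI1 and GPT1. PGI1 averaged 53.6 ± 9.67 FPKM in smxl5-1 and 48.9 ± 0.846 FPKM in WT, PGM1 36.0 ± 6.64 FPKM in smxl5-1 and 33.7 ± 1.94 FPKM in WT, and GPT1 33.3 ± 9.003 FPKM in smxl5-1 and 27.1 ± 3.22 FPKM in WT (SD, n = 3 each). The PGM1 value of smxl5-1 replicate 3 was 43.7 FPKM, of which 1 piece of 415 bases gave 27.9 FPKM. With effective lengths PGM1 averaged 31.0 ± 1.34 FPKM in smxl5-1 and 33.6 ± 1.96 FPKM in WT (SD, n = 3 each).

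In smax1-2 none of the 9 genes was called against WT by limma and none had an unadjusted p under 0.05, where 0.0356% of all genes were called and 6.77% had such a p. The estimates of 6 of the 9 were above 0, against 66.7% of all genes, with a median of 0.21 against 0.09. GPT2 had values of 5.14, 4.59 and 3.79 FPKM in smax1-2, against 2.39, 3.71 and 1.67 FPKM in WT, without overlap but with a 95% interval of the log2 fold change of -0.17 to 1.47. APL4 had values of 6.33, 6.14 and 6.06 FPKM in smax1-2, against 4.55, 4.24 and 5.42 FPKM in WT, also without overlap, with an interval of -0.05 to 0.71. APL3 had values of 9.45, 9.10 and 6.31 FPKM in smax1-2, against 7.00, 5.97 and 6.32 FPKM in WT, where smax1-2 replicate 3 lay inside the WT range. The 95% interval of its log2 fold change was -0.17 to 0.79. Short pieces made up 29.5% and 21.1% of the APL4 value in smax1-2 replicates 1 and 2, and 20.1% of the APL3 value in replicate 1. With effective lengths APL4 had values of 4.39, 4.96 and 5.31 FPKM in smax1-2, against 4.11, 4.08 and 4.46 FPKM in WT. GPT2 then had values of 4.33, 4.47 and 2.82 FPKM in smax1-2, against 2.19, 3.65 and 1.33 FPKM in WT, and for both genes the groups overlapped. With plain lengths the libraries of PGI1 lay above WT as well, making 3 of the 9 genes, against 12.9% of all genes.

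**Figure D2:**
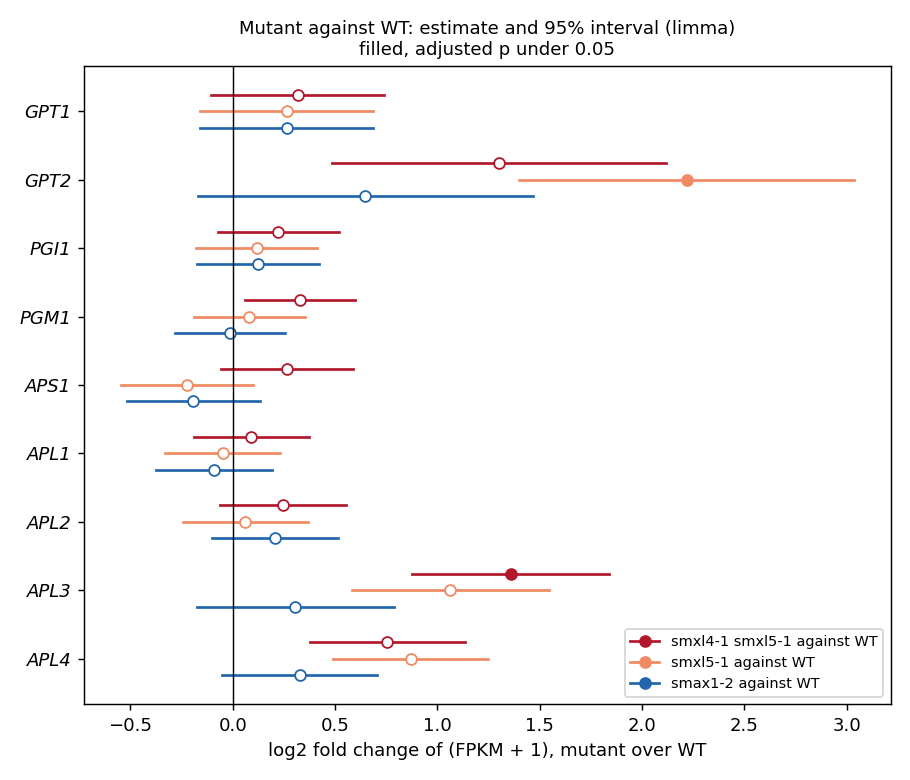
Log2 fold change of FPKM + 1 (x axis) of each gene in smxl4-1 smxl5-1, smxl5-1 and smax1-2 against the same WT libraries, with 95% intervals from limma; filled points passed the adjusted threshold of 0.05. Only APL3 in the double mutant (1.36) and GPT2 in smxl5-1 (2.22) are filled.

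The mutants were then set against each other, which tests the differences directly. Between the double mutant and smax1-2, 1 of the 9 genes was called, and it was higher; 1.55% of all genes were called and 0.809% were called higher. APL3 had values of 21.3, 20.7 and 13.2 FPKM in the double mutant, against 9.45, 9.10 and 6.31 FPKM in smax1-2, with no overlap and a log2 fold change of 1.05 (SE 0.22, 95% interval 0.57 to 1.53, limma adjusted p = 0.0457). The call held without double-mutant replicate 3 (adjusted p = 0.0284) and was lost without double-mutant replicates 1 (0.145) and 2 (0.134) and without smax1-2 replicates 1 (0.0895), 2 (0.0956) and 3 (0.148). It was also lost with median-of-ratios scaling (0.0510), a plain sum of FPKM (0.861), complete matches alone (0.831) and a fit of these 2 groups alone (0.164). A block for the replicate number lost this call as well. The libraries of APL4, APS1, GPT2 and PGM1 in the double mutant also lay above those of smax1-2 without passing, making 5 of the 9 genes, against 8.16% of all genes.

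Between the double mutant and smxl5-1 none of the 9 was called by limma, 2 had an unadjusted p under 0.05, and 1 was higher without overlap. Over all genes 2.99% were called, 17.1% had such a p and 9.35% were higher without overlap. APS1 had values of 199, 143 and 153 FPKM in the double mutant, against 105, 140 and 106 FPKM in smxl5-1, without overlap, a log2 fold change of 0.49 (95% interval 0.17 to 0.81, adjusted p = 0.109). GPT2 had values of 11.8, 6.24 and 5.91 FPKM in the double mutant, against 16.3, 8.67 and 24.7 FPKM in smxl5-1, with overlap and a log2 fold change of -0.92 (95% interval -1.73 to -0.10, adjusted p = 0.235). The call of APL3 in one mutant and of GPT2 in the other is therefore not shown to be a difference between these mutants: the interval for APL3 between them was -0.19 to 0.78. With effective lengths PGM1 was called here, with a log2 fold change of 0.41 (adjusted p = 0.0132). It then averaged 41.3 ± 1.16 FPKM in the double mutant and 31.0 ± 1.34 FPKM in smxl5-1 (SD, n = 3 each). The 2.99% above is the share of the main fit, and effective lengths called more genes in this comparison, as given at the end.

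Between smxl5-1 and smax1-2 none of the 9 was called by limma, 3 had an unadjusted p under 0.05, and the same number were higher without overlap. Over all genes 0.224% were called, 11.8% had such a p and 8.93% were higher without overlap. The smxl5-1 libraries lay above those of smax1-2 for GPT2 (log2 fold change 1.57, adjusted p = 0.147), APL3 (0.76, adjusted p = 0.224) and APL4 (0.54, adjusted p = 0.254).

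The make-up of the large subunit transcripts was examined within each library. APL3 and APL4 together made up 16.1%, 17.2% and 12.6% of the summed large-subunit value in the double mutant, 15.8%, 12.1% and 18.1% in smxl5-1, 11.2%, 10.4% and 8.20% in smax1-2, and 7.55%, 7.94% and 6.91% in WT. All libraries of each mutant stood above those of WT, and the exact two-sided permutation test gave p = 0.1 for each mutant, the smallest value that 3 libraries against 3 allow. With effective lengths or a plain sum of FPKM the p for smax1-2 was 0.2. APL1 remained the major part in every genotype, at 79.6% ± 1.75 in the double mutant, 79.8% ± 3.64 in smxl5-1, 84.2% ± 0.933 in smax1-2 and 87.7% ± 1.37 in WT (SD, n = 3 each). The summed large-subunit value of each mutant overlapped that of WT, while all double-mutant libraries lay above those of smax1-2. It averaged 176 ± 18.3 FPKM in the double mutant, 159 ± 13.1 FPKM in smxl5-1, 146 ± 4.97 FPKM in smax1-2 and 151 ± 20.8 FPKM in WT (SD, n = 3 each).

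The ratio of summed large subunits to APS1 was 1.09 ± 0.163 in the double mutant, 1.37 ± 0.115 in smxl5-1, 1.24 ± 0.137 in smax1-2 and 1.12 ± 0.191 in WT (SD, n = 3 each). Each mutant overlapped WT, with exact two-sided permutation p values of 0.8 for the double mutant, 0.2 for smxl5-1 and 0.4 for smax1-2. Of the summed GPT value, GPT2 made up 22.8%, 18.6% and 14.2% in the double mutant, 36.0%, 16.6% and 47.4% in smxl5-1, 14.7%, 11.2% and 10.6% in smax1-2, and 7.22%, 12.6% and 6.32% in WT. The double mutant and smxl5-1 stood above WT in all libraries (exact permutation p = 0.1 each, the smallest possible), and smax1-2 overlapped WT (p = 0.3). Over these 3 quantities and 3 mutants 9 such tests were made, and none could pass a threshold of 0.05.

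**Figure D3:**
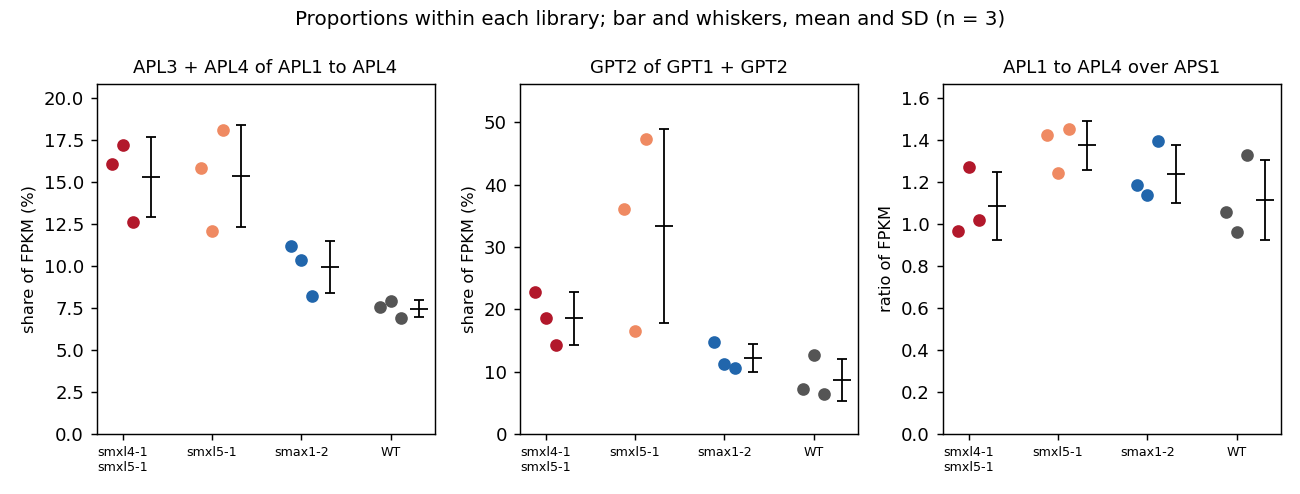
Share of APL3 and APL4 in the summed large-subunit value (percent), share of GPT2 in the summed GPT value (percent) and ratio of summed large subunits to APS1, per library, in smxl4-1 smxl5-1, smxl5-1, smax1-2 and WT; points are libraries and bars are means with the SD. The share of APL3 and APL4 is above the WT libraries in all 9 mutant libraries, and the ratio to APS1 overlaps WT in each mutant.

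How far each value can be trusted differed with the assembly. APS1 was 1 complete piece in all 12 libraries, and the deposited bounds around its FPKM had a median half-width of 2.88%. APL3 was assembled as 1 to 3 pieces of 235 to 1942 bases and APL4 as 1 to 4 pieces of 167 to 2024 bases, with median half-widths of 13.5% and 35.7% for a piece, and GPT2 as 1 or 2 pieces with 18.5%. APL1 had an exon junction not in the reference in 10 of 12 libraries. APL1 overlaps AT5G19210 and AT5G19221 on the other strand, and APL4 overlaps AT2G21595. The library's strand is not stated, so reads of such pairs cannot be told apart. AT5G19210 was listed at 0 to 6.07 FPKM, AT5G19221 in WT replicate 3 alone at 11.9 FPKM, and AT2G21595 in no library.

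Genes around this pathway were described from lists of 13 genes of starch assembly, 15 of plastid supply and enzyme activation (14 tested) and 6 of cytosolic hexose phosphates. In the double mutant against WT, 12 of the 13 starch assembly genes had estimates above 0 (all genes, 60.7%), with a median log2 fold change of 0.23. An unadjusted limma p under 0.05 was held by 5 (all genes, 11.9%). The libraries of 6 lay above all WT libraries (all genes, 12.5%). Of the 13, 1 was called higher and none lower (all genes, 1.13% called). It was SBE2.1, a starch branching enzyme, at 23.1, 27.1 and 23.97 FPKM in the double mutant and at 16.5, 14.1 and 16.3 FPKM in WT, a log2 fold change of 0.63 (limma adjusted p = 0.0147). The groups did not overlap. GBSS1, the granule-bound synthase that makes amylose, had values of 106, 58.2 and 58.9 FPKM in the double mutant, against 41.3, 34.6 and 43.6 FPKM in WT without passing (adjusted p = 0.138), but was called higher in the double mutant than in smxl5-1 (1.16, adjusted p = 0.0250) and than in smax1-2 (1.15, adjusted p = 0.0349). Besides GBSS1, the synthase SS1 was called higher in the double mutant than in smxl5-1 (0.33, adjusted p = 0.0445), so that 2 of the 13 were called in that comparison, against 2.99% of all genes. None of the 13 was called in smxl5-1 or in smax1-2 against WT, and in each of these the smallest p was that of SBE2.1 (adjusted p = 0.279 in smxl5-1 and 0.613 in smax1-2) and 1 gene had an unadjusted p under 0.05, which 12.2% of all genes had in smxl5-1 and 6.77% in smax1-2.

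Of the 14 tested genes of plastid supply and activation none was called in the double mutant against WT, 2 had an unadjusted p under 0.05 (all genes, 11.9%), and the median was 0.03. The smallest p was that of TRXF2, a thioredoxin of the plastid (adjusted p = 0.0863). In smxl5-1 the list had a median of -0.19, against 0.07 over all genes. An unadjusted limma p under 0.05 was held by 7 of the 14 (all genes, 12.2%), and 2 had estimates above 0 (all genes, 61.8%). In that comparison 1 gene was called lower and none higher (all genes, 0.351% called). That gene was PPT2, a plastid carrier of phosphoenolpyruvate, which had values of 12.5, 12.9 and 10.7 FPKM in smxl5-1, against 27.2, 21.9 and 22.3 FPKM in WT, without overlap (log2 fold change -0.92, limma adjusted p = 0.0325). Set against smxl5-1, the double mutant had 3 of the 14 called higher, where 2.99% of all genes were called in either direction, namely PPT2 (0.84, adjusted p = 0.0161), the plastid aldolase FBA1 (0.66, adjusted p = 0.0316) and NTRC, a thioredoxin reductase of the plastid (0.34, adjusted p = 0.0235). In smax1-2 against WT none was called, 1 had an unadjusted p under 0.05 (all genes, 6.77%) and the median was -0.12. The smallest p was again that of PPT2 (adjusted p = 0.658). None of the 6 cytosolic genes was called in any comparison, and 1 had an unadjusted p under 0.05 in each comparison of the double mutant and none in the others. Over all genes such a p was held by 11.9% in the double mutant against WT, 17.1% against smxl5-1 and 11.9% against smax1-2. In the double mutant the smallest p against WT was that of the fructose bisphosphatase CFBP, at 152, 199 and 142 FPKM in the double mutant and 133, 104 and 123 FPKM in WT (adjusted p = 0.240). In smxl5-1 it was that of the phosphoglucomutase PGM3 (adjusted p = 0.419) and in smax1-2 that of UGP2, a UDP-glucose pyrophosphorylase (adjusted p = 0.829).

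**Figure D4:**
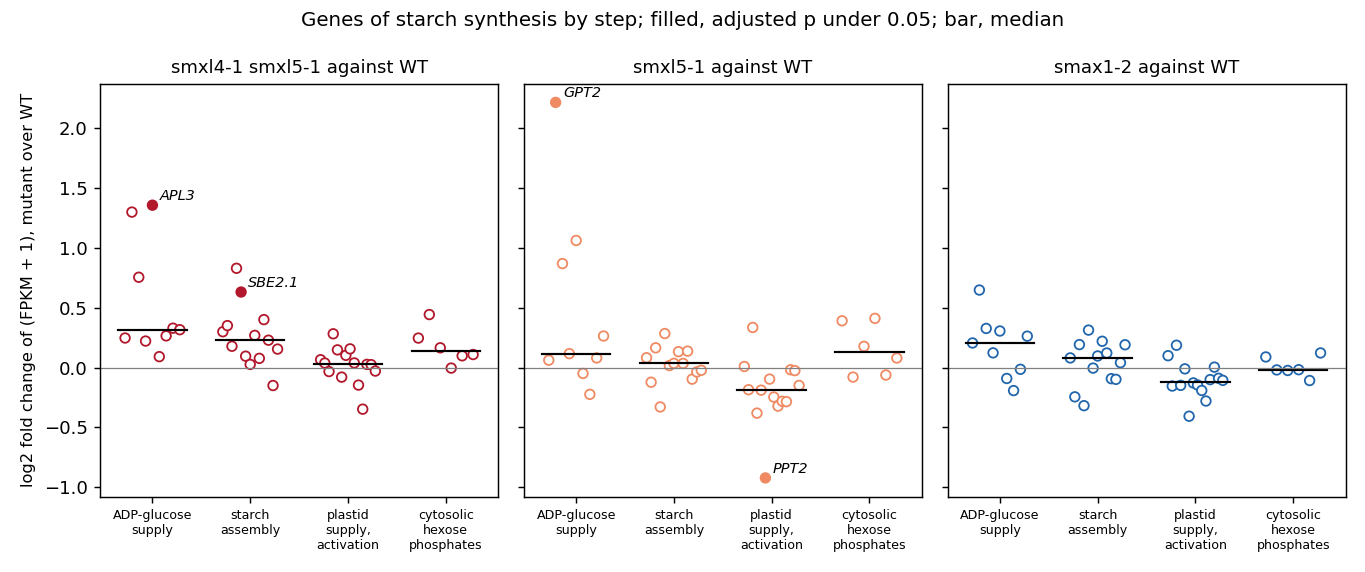
Log2 fold change of FPKM + 1 (y axis) of each gene of 4 lists (ADP-glucose supply, starch assembly, plastid supply and activation, cytosolic hexose phosphates) in smxl4-1 smxl5-1, smxl5-1 and smax1-2 against the same WT libraries. The last 2 lists also hold genes that are not steps of starch synthesis. Points are genes, black bars are medians and filled points passed the adjusted threshold of 0.05. APL3 and SBE2.1 are filled in the double mutant, GPT2 and PPT2 in smxl5-1, and none in smax1-2.

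For the called genes, the genes most alike in pattern over the 12 libraries were listed by Pearson's r of log2(FPKM + 1), as a description in which the libraries share their 4 genotypes. For APL3 these were AT5G05250 (r = 0.95), CORI3 (AT4G23600, r = 0.93) and BETA-VPE (AT1G62710, r = 0.93). CORI3 averaged 37.2 FPKM in the double mutant, 22.2 FPKM in smxl5-1, 8.20 FPKM in smax1-2 and 5.30 FPKM in WT. For GPT2 they were AT5G13440 (r = 0.92), BGLU11 (AT1G02850, r = 0.91) and MAKR1 (AT5G26230, r = 0.91). BGLU11 averaged 21.5 FPKM in the double mutant, 29.6 FPKM in smxl5-1, 14.9 FPKM in smax1-2 and 13.5 FPKM in WT.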

How the data were processed

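Poly-A RNA of 12 seedling libraries was measured, 3 per genotype. The authors deposited 1 table of assembled transcript pieces per library. Its FPKM values, with bounds, are per the file headers, and the deposited coverage (a signal) was a constant multiple of FPKM in each file. A relative abundance in percent, as deposited, was not used. TopHat2 2.0.14 and TAIR10 are named in the submitters' processing notes, and the handling of reads that match several genes is not given in the sources used here. The series design text says that the authors used DESeq2, whose output is not analysed here.

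Pieces whose class code ties them to exons of a reference gene (=, c, j, e, o) were used, 97.7% of 353616. They held 48.5% to 76.3% of the summed FPKM of a library, and the main gene values were not rescaled for this share. A gene's value is the sum of FPKM × min(piece length, reference length) / reference length, and 0 where no piece is listed. Genes that reached 1 FPKM in 3 or more libraries (19656) were tested on log2(FPKM + 1), which understates changes of low genes, with limma 3.58.1 (R 4.3.3, limma-trend) in 1 fit of 12 libraries and 4 groups. The threshold for a call was 0.05 after Benjamini-Hochberg adjustment over all tested genes. p values measure the spread between pools of 15 seedlings, which the labels call biological replicates. The 6 comparisons are each mutant against WT and the mutants against each other. The fit was also tried on simulated data, normal values drawn independently for each gene. These do not imitate how pieces are assembled, so that trial does not bear on the limits of assembly. The text names all 9 genes, the mutated genes, list genes called against WT or, failing that, of smallest p, and the 3 genes most alike in pattern to each called one. GBSS1, SS1, FBA1 and NTRC, and the 2 genes whose means are given among those alike in pattern, were chosen after their values were seen. The members and lists were chosen with earlier results of these data known. Locations, names and sequences are from TAIR10.1, which holds 20728 of the 20869 genes. Alternatives changed the pseudocount (0.1), the filter, the weighting of pieces (effective length for fragments of 200 ± 80 bases, or a plain sum), the classes used, the scaling, a replicate block, the libraries fitted, and left out each library in turn. Python 3.11.15 was used for the values.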

Additional observations from a re-analysis of the deposited data

How the results depend on the processing

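Of 54 fold changes of the 9 genes in 6 comparisons, 25 kept their direction in every alternative, and the rest turned in at least 1. The cause of a changed call was not tested. Assembly of the low genes limits what can be shown, and the tables give no counts. Complete matches alone set a gene to 0 in a library without one, so they also score how completely a gene was assembled. The median SD within groups on the log2 scale was 0.243 for the main values. It was 0.649 with a plain sum of FPKM and 0.809 with complete matches alone. Pseudocount 0.1 and no filter changed no call of the 9 genes. Genes called in all were 11 in smax1-2 against WT with no filter. Effective length called 350 genes in the double mutant, 126 in smxl5-1 and 14 in smax1-2 against WT, 1069 between the double mutant and smxl5-1 (1 of the 9, PGM1) and 90 between smxl5-1 and smax1-2. A plain sum of FPKM called 58 and 9 in the double mutant and smxl5-1 against WT, 80 in the double mutant against smxl5-1, 77 against smax1-2 and 13 between smxl5-1 and smax1-2; complete matches alone called 64, 23 and 17 in the double mutant, smxl5-1 and smax1-2 against WT, and 95, 84 and 22 between mutants, here always double mutant against smxl5-1, double mutant against smax1-2 and smxl5-1 against smax1-2; with either, 0 of the 9 were called in any comparison. Quantile normalization called 37 in smxl5-1 against WT and 0 of the 9 there; median-of-ratios scaling called 0 of the 9 there and 0 between the double mutant and smax1-2. The share of calls that were higher was 55.6% in the double mutant against WT, 45.9% with quantile normalization and 43.9% with median-of-ratios scaling, and in smxl5-1 71%, 51.4% and 53.1%. The 2-group fits called 136, 34 and 1 against WT (double mutant, smxl5-1, smax1-2) and 69, 115 and 22 between mutants, with 0 of the 9 in any (for the double mutant the adjusted p of APL3 was 0.0559 against WT and 0.164 against smax1-2, and that of GPT2 in smxl5-1 was 0.160).

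By the numbers in the sample titles, the correlation of deviations over 18 same-number pairs ran from -0.102 to 0.0671. By these, 2 of 12 libraries correlated best with their own number. The file names exchange numbers 1 and 2 of the double mutant, and the check was not made with those. The highest correlation, 0.167, was between smxl5-1 replicate 2 and double-mutant replicate 1, which share a number by file name. Whether the numbers pair the libraries is therefore not settled. With the replicate block 125, 25 and 4 genes were called against WT and 225, 153 and 20 between mutants, and with numbers 1 and 2 of the double mutant exchanged, as its file names have them, 146, 23 and 4, then 313, 188 and 26. Against WT, APL3 stayed called in the double mutant (adjusted p = 0.0489 with the block), while GPT2 in smxl5-1 (0.114) and APL3 against smax1-2 (0.0977) did not, leaving 0 of the 9 in those comparisons under either block.

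Estimates that turned under effective length were PGM1 -0.11 and APL1 0.0025 in smxl5-1 against WT, APL4 0.26 and GPT1 -0.10 in the double mutant against smxl5-1, GPT1 -0.077 in the double mutant and PGM1 -0.10 in smxl5-1 against smax1-2. Under the plain sum they were APL1 -0.19 in the double mutant against WT, PGI1 -0.12, PGM1 -0.29 and APL3 -0.36 in the double mutant against smxl5-1, APL4 -0.14 in the double mutant against smax1-2, and PGI1 0.22, APL2 0.022 and GPT1 -0.15 in smxl5-1 against smax1-2. Under complete matches alone they were PGM1 -3.32, APL2 -0.76 and GPT1 -3.20 in the double mutant, PGI1 -1.78, PGM1 -3.43, APL1 2.40 and APL2 -0.72 in smxl5-1 and APL2 -0.69 and GPT1 -0.35 in smax1-2 against WT, APL2 -0.037 and GPT1 -3.46 in the double mutant against smxl5-1, PGM1 -1.57, APL2 -0.067 and GPT1 -2.85 in the double mutant and PGM1 -1.68 in smxl5-1 against smax1-2; APL4, with a complete match in 1 library alone, was not tested there. Under quantile normalization they were PGM1 -0.016 and APL2 -0.030 in smxl5-1 against WT and GPT1 -0.027 in smxl5-1 against smax1-2, and under median-of-ratios scaling APL2 -0.0053 in smxl5-1 against WT. The large-subunit to APS1 difference from WT turned to 0.0025 (effective length) and 0.54 (complete matches) in the double mutant and to -0.059 (plain sum) in smax1-2.

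Leaving out 1 library at a time gave 89 to 143 called genes in the double mutant, 18 to 45 in smxl5-1 and 3 to 8 in smax1-2 against WT, 192 to 480 and 113 to 175 in the double mutant against smxl5-1 and smax1-2, and 13 to 28 in smxl5-1 against smax1-2. Of the 9, it called 0 to 2 in the double mutant and 0 to 1 in smxl5-1 against WT, 0 to 1 in the double mutant against smax1-2, and 0 elsewhere. The ranges of estimates that turned were -0.028 to 0.194 for APL1 in the double mutant, -0.021 to 0.22 for PGI1, -0.062 to 0.16 for PGM1 and -0.17 to 0.053 for APL1 in smxl5-1, and -0.068 to 0.032 for PGM1 and -0.21 to 0.011 for APL1 in smax1-2, all against WT. In the double mutant against smxl5-1 they were -0.011 to 0.24 for PGI1, -0.24 to 0.069 for APL4 and -0.069 to 0.26 for GPT1, and against smax1-2 -0.018 to 0.20 for PGI1, -0.067 to 0.15 for APL2 and -0.0598 to 0.21 for GPT1. In smxl5-1 against smax1-2 they were -0.14 to 0.10 for PGI1, -0.048 to 0.17 for PGM1, -0.059 to 0.096 for APL1, -0.17 to 0.038 for APS1 and -0.20 to 0.12 for GPT1. The large-subunit to APS1 difference from WT ran from -0.12 to 0.077 in the double mutant.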
